A study of Mus musculus with 74 samples.

Results

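The KLHL, KBTBD and ASB proteins are substrate adaptors of cullin-RING ubiquitin ligases, and their genes were chosen by symbol, as every gene named Klhl, Kbtbd or Asb followed by a number. The rule found 64 of the 24940 genes in the expression tables, 37 of them KLHL, 9 KBTBD and 18 ASB. It used no measured value, but it was set with earlier results of these data known. The genes were followed in quadriceps of C57BL/6 mice in a study of the transcriptional repressor BCL6. Poly(A) RNA was sequenced from 5 knockouts (AEC-Esr Cre (+), Bcl6 fl/fl, given tamoxifen), 4 Cre-negative Bcl6 fl/fl controls also given tamoxifen, and 4 Cre-positive Bcl6 fl/fl mice given oil. RiboTag mice express an epitope-tagged ribosomal protein in cells with active Cre, and footprints and poly(A) RNA came from 4 such knockouts and 4 controls that carried Cre and RiboTag without Bcl6 fl/fl. All 8 RiboTag mice received tamoxifen. Nascent RNA came from wild-type muscle after DMSO (5 libraries) or the BCL6 inhibitor FX1 (5 libraries). Histone H3 acetylated at lysine 27 (H3K27ac), found at active regulatory DNA, was mapped in 3 sets of libraries: acute, chronic and a set counted in windows on BCL6 peaks. Each set compared 3 knockouts with 3 controls of the Cre-negative genotype, all given tamoxifen. The column names of the acute set give 1 week and those of the chronic set 12 weeks. BCL6 binding comes from 1 wild-type library. The promoter that drives Cre and the age of the mice are not given in the sources used here, and p-values measure the spread between these libraries, which carry a number each for an animal or replicate.

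A cullin-RING ligase is built on a cullin scaffold that holds a RING protein at its far end and an exchangeable adaptor at the other. KLHL and KBTBD proteins bind CUL3 through a BTB domain and hold the substrate with Kelch repeats, and ASB proteins recruit CUL5 through a SOCS box and elongins and hold the substrate with ankyrin repeats. In striated muscle several of them act on the sarcomere: KLHL40 and KLHL41 stabilise nebulin and leiomodin 3 at the thin filament, variants of KLHL40, KLHL41 and KBTBD13 cause nemaline myopathy, KLHL31 acts on filamin C, and ASB2 targets filamins.

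BCL6 peaks lay at many of these genes. Of the 10925 peaks in the authors' list, 64 were assigned by the list's nearest-gene name to 33 of the 64 adaptor genes (51.6%), against 25% of all gene symbols. KLHL genes held 35 peaks at 20 genes, ASB genes 25 peaks at 10 genes and KBTBD genes 4 peaks at 3 genes. Most peaks were distal, with 38 in introns and 14 between genes, and 10 of the 64 (15.6%) were within 1000 bp of a transcription start, against 15.9% of all peaks. The peak score is the authors' own and its scale is not named. Its median was 20.8 at adaptor genes and 23.3 over the whole list. The highest adaptor score, 175.2, belonged to an intergenic peak 129897 bp from the start of Klhl13 (chrX:23136795-23137015, mm10), a gene whose product acts with KLHL9 in mitosis. Klhl9, a distal myopathy gene, followed with 134.8 at its promoter (position -194). Klhl7 scored 122.5 in an exon, Asb2 79.6 at position -3538 from its start, and Klhl38 79.6 at its promoter (position -132). Asb2, Asb5 and Klhl29 held 6 peaks each.

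The promoter bases that fall inside a peak are shown for the 3 genes with a promoter peak where the RefSeq promoter table (GRCm38.p6, which has the mm10 coordinates) covers more than 150 bp upstream of the annotated start. Capitals mark the letters TTCNNNGAA, searched on both strands, which is the core of the recognised BCL6 element and also fits STAT proteins. A match is a description of the letters only.
Klhl28 promoter, chr12:64965537-64965700, minus strand: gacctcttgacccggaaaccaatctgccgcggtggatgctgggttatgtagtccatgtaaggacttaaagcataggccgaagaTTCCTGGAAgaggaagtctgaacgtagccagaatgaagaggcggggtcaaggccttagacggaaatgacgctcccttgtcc
Klhl9 promoter, chr4:88722592-88722758, minus strand: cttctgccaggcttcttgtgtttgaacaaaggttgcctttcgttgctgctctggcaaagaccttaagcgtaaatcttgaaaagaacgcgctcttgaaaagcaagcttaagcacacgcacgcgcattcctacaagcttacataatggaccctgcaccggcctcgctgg
Klhl18 promoter, chr9:110476695-110476900, minus strand: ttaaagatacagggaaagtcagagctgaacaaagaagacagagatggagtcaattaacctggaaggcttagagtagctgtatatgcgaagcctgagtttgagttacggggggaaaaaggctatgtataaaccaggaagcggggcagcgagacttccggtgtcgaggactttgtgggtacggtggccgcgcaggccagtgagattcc
Of these 3 stretches, the one at Klhl28 holds the letters, 81 bp upstream of the start. Promoters (250 bp upstream to 50 bp downstream) were matched for 55 of the 64 genes, 73 promoters in all, and 4 of them (5.48%) hold TTCNNNGAA, against 8.3% of 32851 mouse promoters. The other 3 are Klhl13, Klhl5 and Kbtbd3. The longer form TTCCTNGAA, itself a case of the shorter one, is in 1 adaptor promoter (1.37%, Klhl28) and in 1.59% of all promoters.

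Depth and the state of the samples set what can be compared. Poly(A) libraries held 6.7e+06 to 7.6e+06 tags, nascent libraries 1.4e+07 to 3.3e+07, H3K27ac libraries 7794885 to 23016334, and gene counts summed to 3248807 to 4370468 in the RiboTag footprint libraries and to 6499561 to 13045854 in their mRNA libraries. Bcl6 itself, the floxed gene, fell in knockout poly(A) RNA by 0.23 on the log2 scale against Cre-negative muscle and in RiboTag footprints from 116 to 260 CPM (counts per 1e+06 counts of the library) in controls to 68.6 to 111 CPM, while RiboTag mRNA gave a log2 change of 0.14 (edgeR, adjusted p = 0.84). The skeletal muscle fibre markers Acta1, Ckm, Myh1, Myh2, Myh4, Myh7, Tnnt3 and Ttn were present in every library. In RiboTag footprints the summed level of 33 markers of other cells (endothelium, macrophages, fibroblasts, tendon, fat, Schwann cells, smooth muscle, satellite cells, red cells and T cells) was 3380 to 5036 CPM in controls and 1555 to 3184 CPM in knockouts, and 21 of the 28 markers tested fell and none rose. In RiboTag mRNA the same sum was 3703 to 4877 CPM in controls and 4201 to 4861 CPM in knockouts. In poly(A) RNA 1 of 30 tested markers rose and 1 fell against Cre-negative muscle, and against oil 6 rose, including the 3 red cell markers, and 1 fell.

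In Cre-negative muscle the adaptor genes spanned a wide range of levels per kilobase of exon. The log2 level per kilobase was highest for Asb2 at 9.88 ± 0.067 (SD, n = 4) and Klhl41 at 9.79 ± 0.072, which differ by about their spread. Asb5 (9.21 ± 0.094), Klhl30 (9.19 ± 0.071), Asb11 (9.12 ± 0.075), Klhl40 (9.02 ± 0.12) and Klhl31 (8.96 ± 0.043) followed, each within about the spread of its neighbour. Asb14, Asb8, Asb10, Klhl21, Asb16, Asb12 and Klhl33 lay between 8.86 and 8.49. Klhl38 was 18th of 64 at 7.71 ± 0.16, with the widest spread of the 64 genes. Kbtbd12 and Kbtbd13 led the KBTBD genes at 7.51 ± 0.030 and 7.30 ± 0.013. Asb4 reached 6.85 and Klhl13 6.23. At the low end Klhl3, which acts on WNK kinases in the kidney, had 1.33 ± 0.013, and 7 genes were below 0. Values this low carry little spread in these tables, whose log2 transform is not named. Asb9 and Klhl1 were listed at 0 in every Cre-negative library, so their levels per kilobase reflect exon length alone.

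**Figure D1:**
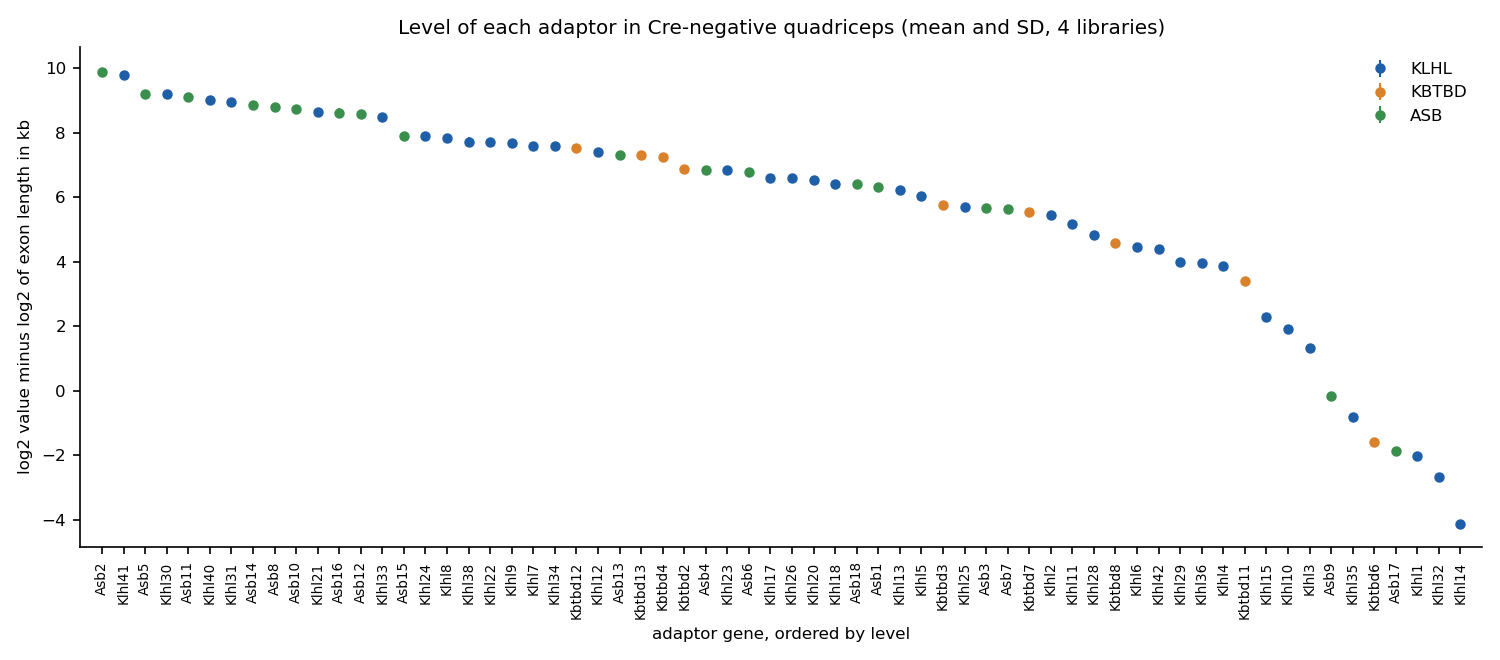
Level of each of the 64 adaptor genes in the 4 Cre-negative poly(A) libraries, as log2 value per kilobase of exon (vertical axis, mean with SD) against rank (horizontal axis), coloured by family. Asb2 (9.88) and Klhl41 (9.79) lead, and 7 genes lie below 0. Among those 7, Asb9 and Klhl1 were listed at 0 in every library shown, so their points reflect exon length alone.

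In knockout poly(A) RNA, 4 adaptor genes rose and 10 fell of the 55 tested against Cre-negative muscle (limma, adjusted p below 0.05). That is 25.5% of the tested adaptors, against 15.3% of all 13732 genes called in either direction (6.04% raised, 9.22% lowered). The median log2 change of the adaptors was close to 0, as was that of all genes (0.0023). KLHL genes contributed 2 raised and 3 lowered of 31, KBTBD genes 2 lowered of 8, and ASB genes 2 raised and 5 lowered of 16. Against oil-treated muscle, with the same knockout libraries, 5 rose and 13 fell of 55, or 32.7% of the adaptors, against 23.4% of all genes (9.89% raised, 13.5% lowered). In bulk tissue fewer cells of a type and less RNA per cell cannot be told apart. The changes printed for poly(A) and nascent RNA are differences of the deposited log2 values, whose transform is not named. Their size therefore cannot be set beside that of the RiboTag changes, which come from counts. The authors' deposited log2 fold changes were larger in size for Kbtbd13 (-0.39) and Asb15 (-0.48), and against oil for Klhl29 (-0.67). For Klhl38 against oil theirs was 0.70, close to the value below.

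Klhl38, a muscle KLHL gene on chromosome 15 (chr15:58314573-58324169, mm10), rose most among the adaptors. Its log2 values were 9.07, 8.68, 8.85 and 8.80 in Cre-negative muscle and 9.37, 8.95, 9.24, 9.41 and 9.34 in knockouts. The groups overlapped, since knockout P1896 (8.95) was below control P1898 (9.07). The log2 change was 0.41 (SE 0.088, adjusted p = 0.00624). Against oil the separation was wider: the oil libraries had 8.81, 8.66, 8.41 and 8.22 and the knockouts, in that table's own scale, 8.90 to 9.39, with no overlap (21.1% of all genes did not overlap there). That log2 change was 0.71 (SE 0.12, adjusted p = 0.000694).

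Asb11, whose product is an ankyrin-repeat adaptor (chrX:164436994-164459170), had log2 values of 9.78, 9.94, 9.83 and 9.80 in Cre-negative muscle and 9.96, 9.92, 9.96, 10.02 and 9.92 in knockouts. Control P1899 lay within the knockout range and the other 3 controls below it. The log2 change was 0.12 (SE 0.034, adjusted p = 0.0338), and the call was lost in 6 of 9 fits that left out 1 library. Against oil (9.67, 9.77, 9.66 and 9.67) the groups did not overlap and the log2 change was 0.26 (SE 0.029, adjusted p = 3.41e-05). Asb2, the filamin adaptor, had 11.23, 11.33, 11.27 and 11.38 in Cre-negative muscle and 11.40, 11.37, 11.47, 11.46 and 11.49 in knockouts, with control P1909 inside the knockout range. It rose by 0.13 on the log2 scale (adjusted p = 0.0184), a call lost without control P1898 (adjusted p = 0.0572), and against oil its change was 0.03 (adjusted p = 0.538). Klhl13 rose by 0.17 against Cre-negative muscle (adjusted p = 0.035) and by 0.21 against oil (adjusted p = 0.00876). In the first of these tables knockout P1900 had 7.92, among the controls at 7.85 to 8.01, and the other knockouts had 8.08 to 8.20. The call against Cre-negative muscle was lost in 7 of 9 fits that left out 1 library.

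Kbtbd13, the nemaline myopathy gene of the KBTBD family (chr9:65388684-65391652), had the smallest p of all adaptors in this comparison. Its log2 values were 8.87, 8.86, 8.85 and 8.88 in Cre-negative muscle and 8.66, 8.64, 8.61, 8.61 and 8.65 in knockouts. Every knockout was below every control (15.2% of all genes did not overlap), and the log2 change was -0.23 (SE 0.022, adjusted p = 1.58e-05). Against oil (9.04, 8.92, 8.95 and 8.83) it fell by 0.28 (SE 0.035, adjusted p = 8.75e-05). Asb15 had 9.91, 9.92, 10.08 and 10.02 in Cre-negative muscle and 9.63, 9.67, 9.63, 9.60 and 9.69 in knockouts. Again no values overlapped, and it fell by 0.34 (SE 0.035, adjusted p = 2.76e-05), the largest decrease among the adaptors. Klhl8, related to a nematode adaptor for the synaptic scaffold rapsyn, had 9.51, 9.52, 9.52 and 9.60 against 9.30, 9.23, 9.30, 9.37 and 9.30, and fell by 0.24 (SE 0.030, adjusted p = 0.000155). Asb15 fell by 0.36 and Klhl8 by 0.22 against oil.

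The remaining decreases were smaller. Kbtbd12 had 8.51 to 8.58 in Cre-negative muscle and 8.34 to 8.48 in knockouts and fell by 0.12 (adjusted p = 0.015), and by 0.19 against oil (adjusted p = 0.000523). Asb12 fell by 0.13 in each comparison (adjusted p = 0.00834 and 0.00491). Asb10 fell by 0.09 and 0.19, and Klhl30, a KLHL gene among the 5 highest per kilobase, by 0.13 and 0.14. The Klhl30 call was lost in both comparisons with quantile normalization (adjusted p = 0.268 and 0.213). Asb4, an imprinted gene, fell by 0.24 against Cre-negative muscle (adjusted p = 0.0108), although knockout P1911 had 8.63, inside the control range of 8.603 to 8.70, while the other 4 had 8.29 to 8.39. Its change against oil was -0.14 (adjusted p = 0.21). Klhl28 fell by 0.12 (adjusted p = 0.0178), a call lost without control P1899 (adjusted p = 0.0541). Asb5 fell by 0.13 (adjusted p = 0.037), a call lost in 4 of 9 fits that left out 1 library. The Asb10 call was likewise lost in 4 of 9. Against oil alone, Klhl29 fell by 0.30 (adjusted p = 4.09e-05; oil 7.24 to 7.35, knockouts 6.97 to 7.08), Asb18 by 0.21, Asb14 by 0.10 and Klhl31 by 0.10, while Klhl42 rose by 0.13 and Klhl41 by 0.08. The Klhl31 call was lost in 6 of 9 fits that left out 1 library. Klhl28 also fell against oil, by 0.14 (adjusted p = 0.0408), a call lost in 7 of 9.

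The sarcomeric adaptors Klhl40 and Klhl41 did not pass the test against Cre-negative muscle. Klhl40 had 10.15 to 10.45 in controls and 10.21 to 10.33 in knockouts, a change of -0.01 (SE 0.048, adjusted p = 0.89). Klhl41 had 11.07 to 11.23 and 11.10 to 11.16, a change of -0.00 (SE 0.032, adjusted p = 0.98), which quantile normalization turned into 0.10 (adjusted p = 0.026). Klhl31 gave -0.09 (adjusted p = 0.0525). Its decrease against oil turned into 0.035 under quantile normalization (adjusted p = 0.433). Asb8, Asb14, Asb16, Asb18, Klhl21, Klhl24, Klhl33 and Klhl34 did not pass the test against Cre-negative muscle, with changes from -0.12 for Asb18 to 0.09 for Klhl33. Klhl3 was below the level tested.

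**Figure D2:**
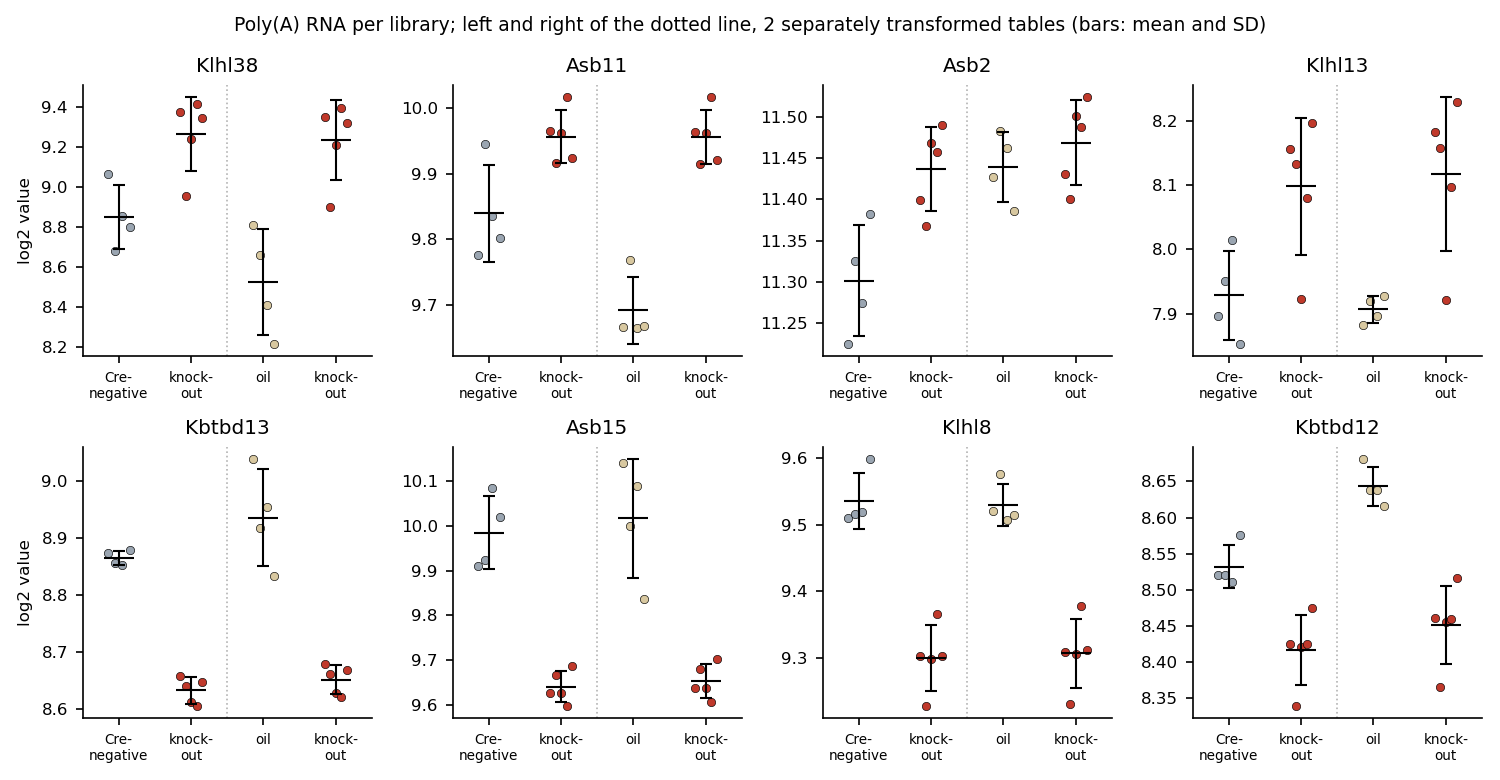
Log2 values per library of 8 adaptor genes in the 2 poly(A) tables, which were transformed separately and share the 5 knockout libraries; each point is a library and the line marks the group mean. Kbtbd13, Asb15 and Klhl8 knockouts sit below every control in both tables, and Klhl38 knockouts (8.90 to 9.39) sit above every oil library (8.22 to 8.81).

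RiboTag mRNA came from other animals. Here 2 adaptors rose and 2 fell of 57 tested, or 7.02%, against 4.21% of all genes (by edgeR, 1.95% raised, 2.25% lowered). Klhl38 had 50.5, 49.5, 35.0 and 57.0 CPM in controls and 88.0, 136, 96.6 and 109 CPM in knockouts. Every knockout exceeded every control (the groups did not overlap in 11.3% of all genes tested), and the log2 change was 1.17 (SE 0.16, adjusted p = 0.00159). Asb11 had 163, 209, 181 and 199 CPM in controls and 275, 294, 274 and 229 CPM in knockouts, again without overlap, a log2 change of 0.51 (SE 0.10, adjusted p = 0.0143). Kbtbd12 fell from 78.5, 89.3, 76.9 and 90.05 CPM to 57.2, 69.0, 48.3 and 61.6 CPM (log2 change -0.50, SE 0.11, adjusted p = 0.0247). Klhl8 fell from 92.5, 101, 93.8 and 85.2 CPM to 75.8, 76.4, 68.2 and 66.7 CPM (log2 change -0.38, SE 0.085, adjusted p = 0.0269). All 4 genes were also called, in the same direction, in each poly(A) comparison. They make up 50% of the raised and 20% of the lowered poly(A) adaptor calls against Cre-negative muscle, where the same shares over all genes were 21.2% and 17.6%, and 40% and 15.4% against oil (14.2% and 14.3% over all genes). As shares of the RiboTag mRNA calls, the adaptors shared with Cre-negative muscle were 100% in each direction, and over all genes 67.3% of the raised and 70.3% of the lowered. The calls of Asb11, Kbtbd12 and Klhl8 were lost in 3, 4 and 4 of 8 fits that left out 1 library, and that of Klhl38 was kept in each case.

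In ribosome footprints 5 adaptors rose and 5 fell of 58 tested, or 17.2%, against 26.6% of all genes (10.9% raised, 15.7% lowered). Asb11 had 218, 238, 241 and 234 CPM in controls and 381, 361, 362 and 320 CPM in knockouts (log2 change 0.58, SE 0.078, adjusted p = 0.000559). Asb2 had 493, 432, 414 and 519 CPM and 626, 677, 781 and 710 CPM (0.56, SE 0.10, adjusted p = 0.00221). Klhl38 had 45.6, 40.1, 33.9 and 41.8 CPM and 65.3, 76.1, 55.5 and 72.6 CPM (0.71, SE 0.13, adjusted p = 0.00308). None of these 3 genes overlapped between the groups, as was so for 19% of the adaptors and 26.2% of all genes tested, and each kept its call when any library was left out. Klhl33 rose by 0.46 (adjusted p = 0.0256) and Klhl20, an adaptor of the death-associated kinase DAPK, by 0.39 (adjusted p = 0.0456), calls lost in 4 and 6 of 8 fits that left out 1 library. Kbtbd12 fell from 105 to 125 CPM in controls to 81.0 to 94.5 CPM in knockouts (-0.42, SE 0.096, adjusted p = 0.00767). Asb2 mRNA in the same mice was 512 to 737 CPM in controls and 622 to 839 CPM in knockouts, a log2 change of 0.31 (adjusted p = 0.293).

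The largest footprint decreases were in weakly expressed KLHL genes. Klhl11 had 37.8, 40.3, 40.7 and 23.4 CPM in controls and 14.3, 21.8, 9.19 and 9.79 CPM in knockouts, without overlap, a log2 change of -1.41 (SE 0.27, adjusted p = 0.00297). Klhl42, which acts on the microtubule-severing protein katanin, had 15.03, 11.1, 14.5 and 7.88 CPM and 4.88, 8.33, 4.60 and 4.54 CPM (-1.15, SE 0.29, adjusted p = 0.0114). Klhl4 had 12.3, 13.9, 11.2 and 3.94 CPM and 1.83, 5.75, 0.862 and 1.67 CPM (-2.07, SE 0.50, adjusted p = 0.00915). In all 3 genes RPF_11745 was the lowest control library and RPF_11718 the highest knockout library. The same libraries had the lowest control sum (3380 CPM) and the highest knockout sum (3184 CPM) of the 33 markers of other cells, while muscle fibre markers summed to 32670 to 39000 CPM in controls and 31200 to 46160 CPM in knockouts. The part of the other cells in these decreases was not tested. Klhl32, which also fell (-0.63, adjusted p = 0.03), was singled out after its values were seen because it completes the count of 5. Its footprint groups overlapped, with 38.5 to 84.4 CPM in controls and 31.7 to 42.5 CPM in knockouts. Its mRNA, at a mean of 0.38 CPM in controls, was too low to test. Its control log2 ratio of footprint to mRNA, 6.05, was the highest of the adaptors. Its call was lost in 4 of 8 fits that left out 1 library, and its change was -0.41 without control RPF_11735 (adjusted p = 0.0973).

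**Figure D3:**
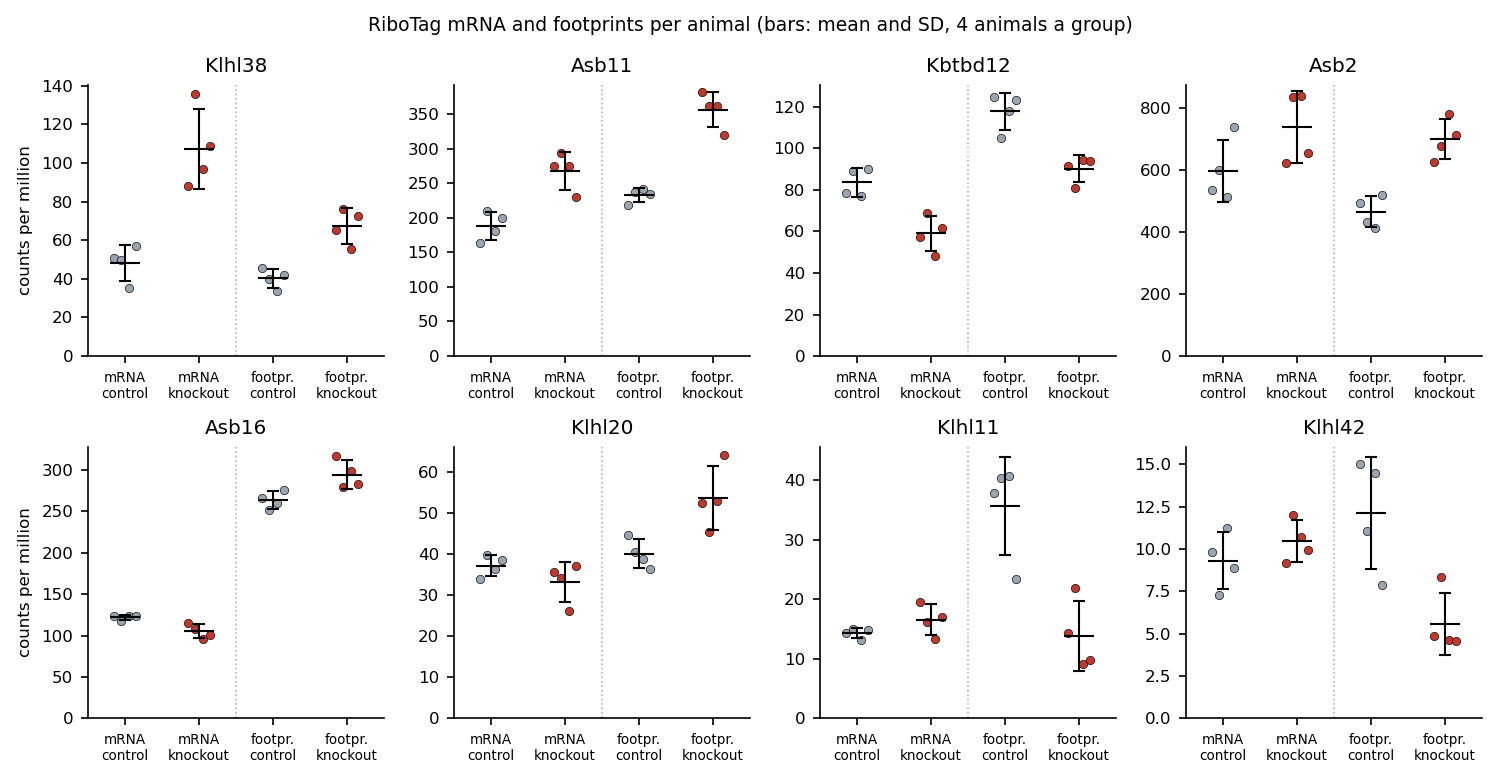
CPM of 8 adaptor genes in RiboTag mRNA and RiboTag footprints, with a point for each of 4 control and 4 knockout mice and a line at the group mean. Klhl38 and Asb11 knockouts lie above every control in both libraries, Asb2 knockouts (626 to 781 CPM) above every control (414 to 519 CPM) in footprints, and Klhl11 knockouts (9.19 to 21.8 CPM) below every control (23.4 to 40.7 CPM) in footprints.

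Translation efficiency, the footprint level relative to mRNA in the same mice, was called higher in knockouts for 3 adaptors and lower for 4 of 58 tested (12.1%, against 9.91% of all genes; 2.93% raised, 6.98% lowered). In controls the median log2 ratio of footprint to mRNA CPM was 0.35 for the adaptors and 0.054 for all genes tested. Klhl11 had the largest support, with control ratios of 1.37, 1.40, 1.60 and 0.64 on the log2 scale and knockout ratios of -0.43, 0.42, -0.51 and -0.77 (change -1.57, SE 0.31, adjusted p = 0.00804). It alone of the 7 kept its call when any animal was left out, with both its footprint and its mRNA library. Klhl42 fell by 1.27 on the log2 scale (adjusted p = 0.0234), Klhl4 by 2.01 (adjusted p = 0.0444) and Klhl6, a gene known from B lymphocytes, by 1.46 (adjusted p = 0.0492). The median change of the markers of other cells in this test was -1.06, with 10 of 31 called lower, and its part in the 4 decreases was not tested. Among ASB genes, Asb16 had 1.11, 1.09, 1.07 and 1.16 in controls and 1.45, 1.38, 1.63 and 1.48 in knockouts, a rise of 0.39 (SE 0.11, adjusted p = 0.034) without overlap (15.6% of all genes tested did not overlap). Asb4 rose by 0.55 (adjusted p = 0.0412) and Klhl20 by 0.59 (adjusted p = 0.0429). With the animal as a block the Asb4 and Klhl6 calls were lost (adjusted p = 0.0571 and 0.056). Of the 16 ASB genes, 14 had a higher and 2 a lower ratio in knockouts, and the test called 2. The direction was not counted over all genes, and the part of the other cells in the higher ratios was not tested. The median change was 0.19 for the ASB genes and 0.05 for all genes tested, and of all 58 adaptors 37 were higher and 21 lower. In the authors' deposited table of translation efficiency, the log2 changes of Asb4, Asb2, Asb16 and Asb11 were 0.96, 0.83, 0.56 and 0.53 (adjusted p = 0.00204, 0.0225, 0.00975 and 0.02). The edgeR test gave 0.29 for Asb2 (adjusted p = 0.301) and 0.11 for Asb11 (adjusted p = 0.613).

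Nascent RNA in wild-type muscle asked which adaptors respond when BCL6 is inhibited by FX1. Of 62 tested, 5 rose and 14 fell (30.6%, against 20.6% of all genes; 10.5% raised, 10.1% lowered). KLHL genes contributed 4 raised and 6 lowered of 36, KBTBD genes 1 lowered of 8 and ASB genes 1 raised and 7 lowered of 18. Kbtbd13 had log2 values of 6.69, 6.52, 6.65, 7.04 and 6.77 with DMSO and 5.54, 5.73, 5.87, 5.72 and 5.46 with FX1. Every treated library was below every control (16.5% of all genes did not overlap), and the change was -1.07 (SE 0.13, adjusted p = 0.000346), the smallest p of the adaptors. Klhl2, an actin-binding adaptor of WNK kinases, had 9.32, 9.61, 9.89, 9.16 and 9.63 and 10.32, 10.27, 10.13, 10.38 and 10.47, a rise of 0.79 (SE 0.14, adjusted p = 0.00279), again with no overlap.

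The larger decreases with FX1 were mostly in muscle ASB and KLHL genes. Asb18 had 11.48, 11.16, 11.28, 11.53 and 11.28 with DMSO and 9.62, 10.26, 11.13, 10.003 and 9.59 with FX1, a change of -1.23 (SE 0.25, adjusted p = 0.00593). The third FX1 library was nearest to the controls. The same library was the highest treated value for Asb14 (11.62, the others 9.57 to 10.10; change -1.49, adjusted p = 0.0121), Asb4 (9.41, the others 7.31 to 8.15; -1.48, adjusted p = 0.00699) and Asb12 (7.06, the others 5.85 to 6.26; -1.19, adjusted p = 0.00325). Without it 10 adaptors rose and 22 fell, while the counts over all genes went from 1640 raised and 1589 lowered to 2361 and 2200. Klhl31 fell by 1.17 (adjusted p = 0.0126), Asb2 by 0.94 (adjusted p = 0.0226), Klhl34 by 0.83 (adjusted p = 0.00644), Asb16 by 0.82 (adjusted p = 0.00718) and Klhl41 by 0.72 (adjusted p = 0.029). Klhl8 fell by 0.53 and Klhl21 by 0.33, and each of these calls was lost in 9 of 10 fits that left out 1 library. Klhl29 (0.56), Asb10 (0.46) and Klhl6 (0.45) rose, as did Klhl15 (0.46, adjusted p = 0.0236), which was named after its values were seen. The Asb10, Klhl6 and Klhl15 calls were lost in 7, 8 and 3 of 10 such fits and the Klhl41 call in 5. With the replicate number as a block Klhl29, Asb10, Klhl6 and Klhl15 did not pass (adjusted p = 0.0537, 0.0864, 0.13 and 0.0765), nor did Klhl29 with quantile normalization (adjusted p = 0.107). The muscle fibre markers moved the same way as the lowered adaptors: 4 of 8 fell and none rose, with a median change of -0.86, and their summed level was 1476000 to 1815000 with DMSO and 763800 to 1180000 with FX1. The part of that decrease in the adaptor changes was not tested. Klhl38 (-0.36, adjusted p = 0.148), Asb11 (0.27, adjusted p = 0.608), Kbtbd12 (-0.77, adjusted p = 0.0961) and Klhl40 (1.05, adjusted p = 0.0775) did not pass. In the authors' deposited test Klhl40 rose by 1.49 (adjusted p = 0.00444), though its values overlapped between the groups. There Klhl38, Asb11 and Kbtbd12 did not pass either (adjusted p = 0.179, 0.333 and 0.217).

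Calls in knockout poly(A) RNA and with FX1, which share no library, met in part. Kbtbd13, Asb12, Asb4 and Klhl8 fell against Cre-negative muscle and with FX1, 40% of the adaptors lowered in the first and 30.8% of those tested in both and lowered in the second, against 20.7% and 19.9% over all genes. No adaptor rose in both, and over all genes 11.8% of those raised against Cre-negative muscle also rose with FX1. Asb2 rose in knockouts and fell with FX1, and Asb10 fell in knockouts and rose with FX1. Over all genes 96 of 781 raised and 127 of 1262 lowered against Cre-negative muscle were called the other way with FX1. Against oil, 6 lowered adaptors were shared with FX1 (46.2% of each list, against 19.4% and 27.3% over all genes), namely Kbtbd13, Asb12, Asb14, Asb18, Klhl31 and Klhl8. In the same pair of comparisons Klhl41 rose against oil and fell with FX1, and Asb10 and Klhl29 fell against oil and rose with FX1. Such opposite calls were made over all genes for 144 of 1287 raised and 194 of 1838 lowered against oil. Of all 64 adaptors, 34 were called in at least 1 of the 6 comparisons and 24 in at least 2. All genes were not counted in this way, and some of the comparisons share libraries. These 2 counts therefore do not show whether adaptors were called more often than other genes.

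**Figure D4:**
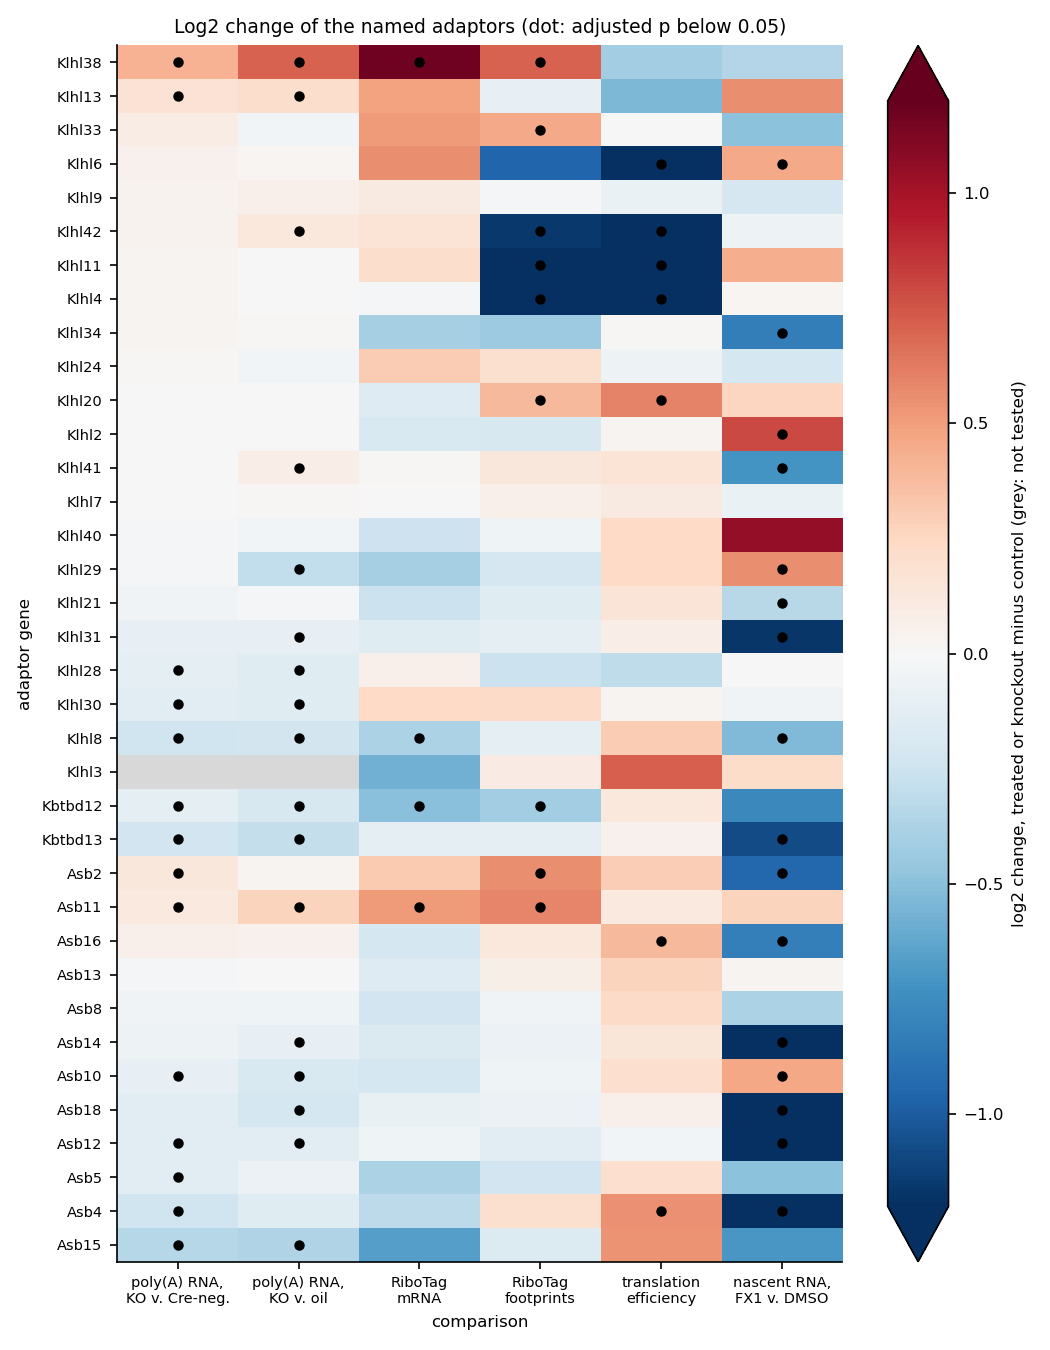
Log2 change of the 36 named adaptor genes (rows of the map) in 6 comparisons (columns), as colour on a scale from -1.2 to 1.2 with larger changes drawn at the end colours; a dot marks a called gene and grey a gene not tested. Klhl38 and Asb11 are raised in both poly(A) columns, RiboTag mRNA and footprints, and Kbtbd13 is lowered in both poly(A) columns and with FX1.

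H3K27ac was counted in 1000 bp windows centred on the BCL6 peaks. Of the 64 adaptor windows, 48 had enough signal to test, and 15 rose and none fell in knockouts (31.2%, against 19.5% of all 7998 windows; 18% raised, 1.58% lowered). The direction over all windows depends on the scaling: 1436 rose and 126 fell with the deposited scaling, 820 and 537 with quantile normalization, and 1021 and 387 with edgeR on whole reads recovered from the signal, of which 100% came out whole. The median log2 change of all windows was 0.14, -0.065 and -0.019 in turn. The median of the adaptor windows was 0.27 with the deposited scaling, and 7 adaptor windows rose with quantile normalization and 10 with edgeR on recovered reads. Those 10 include the Klhl13 window, which was not among the 48. The 3 control and 3 knockout libraries carry animal numbers that also occur among the poly(A) libraries.

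Klhl38, Asb11 and Asb2 had raised windows and raised poly(A) RNA against Cre-negative muscle. Klhl38 and Asb11 RNA also rose against oil and in RiboTag mRNA. Asb2 rose in footprints but was not called against oil (limma, adjusted p = 0.538) or in RiboTag mRNA (edgeR, adjusted p = 0.293). With FX1 its nascent RNA fell by 0.94. At the Asb2 peak at position -3538 (window chr12:103359039-103360039, mm10) the signal, in tags per 10000000, was 146, 154 and 148 in controls and 242, 259 and 248 in knockouts. Every knockout exceeded every control (35.6% of all windows did not overlap), with a log2 change of 0.74 (SE 0.095, adjusted p = 0.000103), and 0.55 after quantile normalization. The Asb2 windows at positions -2531 and 2240 rose by 0.61 and 0.49, and both were also called after quantile normalization. Those at positions 3096, 7484 and 17212 were not called (limma, adjusted p = 0.0916, 0.171 and 0.83). At the Klhl38 promoter (chr15:58323801-58324801) the signal was 152, 148 and 131 in controls and 194, 257 and 231 in knockouts, a log2 change of 0.65 (SE 0.12, adjusted p = 0.00173) and 0.46 after quantile normalization. An intergenic Klhl38 window 33728 bp away rose by 0.64 (adjusted p = 0.00539), and not after quantile normalization (adjusted p = 0.0691). In the second intron of Asb11 (chrX:164439887-164440887) the signal was 138, 121 and 101 against 181, 198 and 155, a rise of 0.57 (SE 0.14, adjusted p = 0.00967), lost without knockout mKO_1900 (adjusted p = 0.0537).

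Klhl7, a retinitis pigmentosa gene, gained acetylation without a called change in RNA. In its exonic window the signal was 150, 173 and 149 in controls and 254, 270 and 259 in knockouts (0.73, SE 0.10, adjusted p = 0.000179; 0.54 after quantile normalization), its intronic window rose by 0.52, and the log2 change of its RNA was -0.01 against Cre-negative muscle (adjusted p = 0.868). At Klhl8 (0.50) and Kbtbd12 (0.56) 1 window rose while their poly(A) RNA fell. At Klhl29 (0.58), Asb5 (0.48), Klhl40 (0.39) and Klhl31 (0.34) 1 window each also rose. Asb5 RNA fell against Cre-negative muscle, and Klhl29 and Klhl31 RNA fell against oil. The other tested windows of Klhl8, Klhl29, Asb5 and Klhl31 were not called, and that of Klhl31 had a change of -0.36. None of these 6 raised windows was called after quantile normalization. The Kbtbd12, Asb5 and Klhl40 calls were lost in 5, 4 and 3 of 6 fits that left out 1 library. The Asb13 window rose by 1.09 (adjusted p = 0.039) with overlapping groups, and its call was lost in 4 of 6 fits that left out 1 library, with quantile normalization (adjusted p = 0.0789), without the filter on low values (0.0506) and with edgeR on recovered reads (0.0528). The promoter windows of Klhl9 (0.19, adjusted p = 0.155), Klhl28 (0.00, adjusted p = 0.99) and Klhl33 (0.25, adjusted p = 0.0515) did not pass. The Klhl13 window, on the highest-scoring adaptor peak, had 0, 2 and 0 recovered tags in controls and 26, 24 and 30 in knockouts. Its mean signal was below the level tested in the main fit. It was called without the filter on low values (limma, log2 change 3.54, adjusted p = 4.21e-05). It was also called with edgeR on recovered reads (4.92, adjusted p = 3.55e-05). With so few tags in controls the size of the change is imprecise. In the poly(A) comparison with Cre-negative muscle, all 4 raised adaptors and 8 of the 10 lowered had a BCL6 peak, against 56.4% of the adaptors tested. Against oil, with the same knockout libraries, these were 3 of 5 raised and 11 of 13 lowered, and in footprints 4 of 5 raised and 1 of 5 lowered. With FX1 they were 3 of 5 raised and 7 of 14 lowered, against 53.2% of the adaptors tested. Over all genes the shares against Cre-negative muscle were 51.7% of raised, 57.4% of lowered and 34.8% of tested genes. In the same order they were 47.7%, 51.3% and 34.8% against oil, and 44.5%, 35.8% and 35.6% in footprints. With FX1 they were 41.6%, 40.5% and 32.9%.

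**Figure D5:**
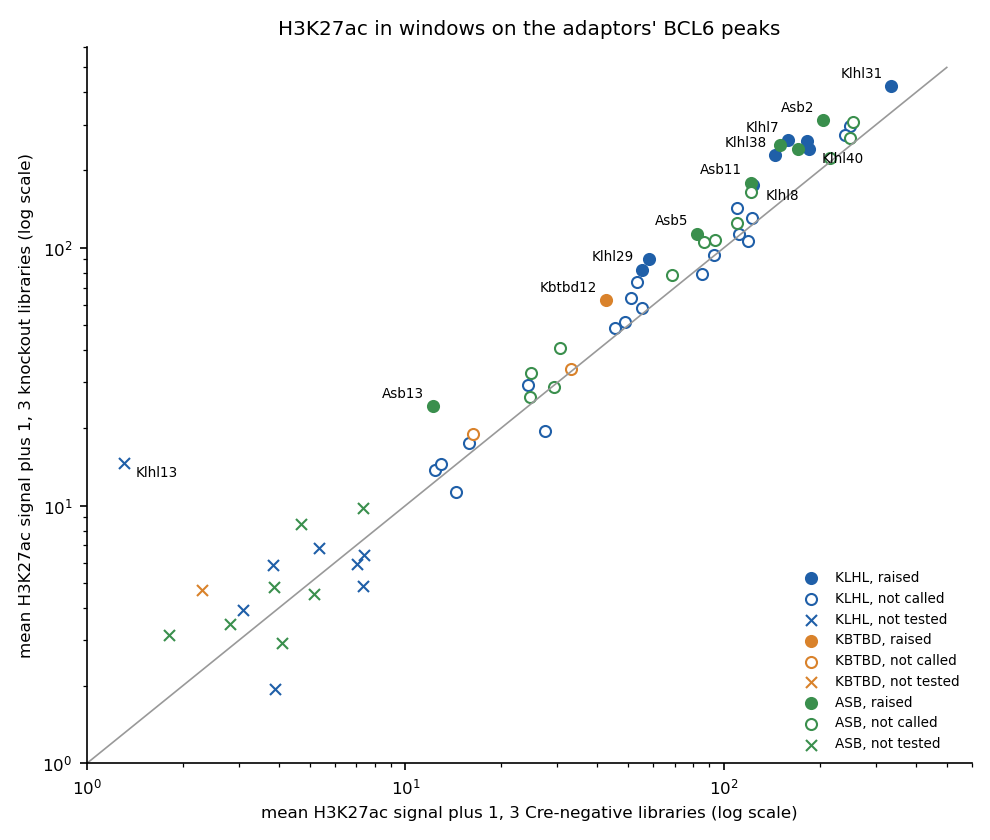
Mean H3K27ac signal plus 1 of each adaptor window in 3 knockouts (vertical axis) against 3 Cre-negative controls (horizontal axis), both on log scales with the line of equal signal; filled points were raised, open points were not called and crosses were not tested. The windows of Asb2 and Klhl7 lie furthest above the line among those with strong signal, and Klhl13 stands alone at low control signal.

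In the acute and chronic sets, counted in regions rather than on peaks, no adaptor region passed. Of 201 adaptor regions tested in the acute set 0 were called (0.154% of all regions were, 0.147% raised and 0.00734% lowered), with 21 at an unadjusted p below 0.05, and of 203 in the chronic set 0 were called (0.254% of all regions, 0.236% raised and 0.0176% lowered), with 15 at that p. edgeR on recovered reads called 0 in each. The difference between the sets was called in 0 of 48849 regions, with 10 of the 190 adaptor regions at an unadjusted p below 0.05. All regions were not counted at that unadjusted p, so the adaptor counts at it cannot be read as an excess. Without control Ctr_6345, 1 adaptor region was called in the acute set. Chronic control Ctr_1801 correlated with the rest of its group at 0.79, the lowest of all libraries.

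The partners of the adaptors were followed by 3 lists: the cullin-RING core, other CUL3 or SOCS-box adaptors, and known substrates. Over all genes 6.04% rose and 9.22% fell against Cre-negative muscle. There 1 of 34 core genes rose and 6 fell (median -0.01). Both scaffolds were among those lowered, Cul3 by 0.08 (adjusted p = 0.0345) and Cul5 by 0.15 (adjusted p = 0.00158), and Cul7 rose by 0.20 (adjusted p = 0.00509). Of 29 other adaptors 2 rose and 7 fell (median -0.02), with Spsb1 up by 0.41 and Socs7 down, at -0.19. Of 14 substrates and partners none rose and 6 fell (median -0.09): Neb, which encodes nebulin, fell by 0.28 (adjusted p = 9.02e-06), Flna by 0.18 and Lmod3, which encodes leiomodin 3, by 0.16. The counts raised and lowered for core, other adaptors and substrates were 1 and 5, 5 and 9, and 5 and 7 against oil (9.89% raised and 13.5% lowered over all genes). They were 1 and 0, 1 and 1, and 0 and 0 in RiboTag mRNA (1.95% and 2.25% over all genes), where Socs2 rose by 1.69 and Cul7 by 0.79. In footprints (10.9% and 15.7% over all genes) they were 2 and 0, 2 and 3, and 3 and 2, with Flnc, a KLHL31 and ASB2 partner, up by 0.39 (adjusted p = 0.00836) and Flna down, at -1.54. Footprints of the markers of other cells had a median change of -1.08, and the part of those cells in the Flna decrease was not tested. In translation efficiency (2.93% and 6.98%) they were 2 and 1, 0 and 1, and 2 and 2. With FX1 (10.5% and 10.1%) they were 1 and 1, 6 and 3, and 1 and 2, where Lmod3 fell by 1.201 (adjusted p = 0.000168) and Spsb1 rose by 1.86.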

How the data were processed

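Groups came from the labels. Of 74 samples, 58 had values in the deposited files used here, in 62 columns. Chronic RNA, input and wild-type H3K27ac libraries were not analysed here. The authors used, per the submitters' processing notes, STAR 2.4.0, Bowtie 1.2, HOMER, DESeq2 1.14.1 and mm10, without saying which tool made which file. Poly(A) and nascent tables, per the file headers, hold log2 values made by the authors from tags in exons or gene bodies by a transform that is not named, and poly(A) tags were counted on both strands, so overlapping genes (Asb3 with Chac2, Klhl17 and Klhl3 with microRNAs) cannot be separated. Per the file headers, the RiboTag table holds counts of tags in gene bodies with at most 5 tags per position. The RiboTag mRNA label lists the anti-HA antibody too, so pull-down or whole muscle is unclear. Per the file headers, H3K27ac is a signal, in tags per region scaled to 10000000 per library. The authors' deposited peak score has no named scale. The authors' deposited tables also give a log2 fold change, p-value and ratio per gene, quoted where named.

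Log2 values of at least 3.322 on average and log2 of signal plus 1 (mean signal of at least 10) were tested with limma 3.58.1 (trended variance), and counts with edgeR 4.0.16 (quasi-likelihood test with TMM scaling, minimum count 10 in filterByExpr), on R 4.3.3 with the data.table package (1.17.8). Translation efficiency is the interaction of genotype and library type over the 16 RiboTag libraries, and printed ratios add 0.5 CPM. Benjamini-Hochberg adjusted p below 0.05 over all features was called. Footprints and mRNA with the same number come from the same animal, and their deviations from the group means correlated between -0.0398 and 0.376. Fits were tested on simulated data, and no 2 libraries held identical values. Alternatives were DESeq2 1.42.0, other scalings, filters, pseudocount 5, a common prior variance, replicate blocks and leaving out each library. In translation efficiency both libraries of an animal were left out together. edgeR on recovered reads was added after seeing the data.

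Named are adaptors called in at least 2 of the 6 RNA or footprint comparisons or among the 3 smallest p of each, a fixed list of muscle adaptors, those with a raised window and the 5 with the highest peak scores. Members and lists were chosen with earlier results of these data known. Figures used Python 3.11.15, pandas 2.3.3, numpy 2.4.6 and matplotlib 3.10.9.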

Additional observations from a re-analysis of the deposited data

Results flagged for a closer look

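Outliers were sought in 144 groups of 4 or 5 libraries, from each adaptor in each RNA or footprint comparison that called it. In 12 groups a library's gap to its nearest neighbour was large for the range of its group by Dixon's criterion. Chance gives such a gap in about 1 in 20 groups. In poly(A) RNA, knockout P1911 had an Asb4 log2 value of 8.63 (nearest 8.39), control P1909 had 9.60 for Klhl8 (nearest 9.52) and 8.58 for Kbtbd12 (nearest 8.52), control P1899 had 9.997 for Asb5 (nearest 9.82), and oil library P1904 had 9.77 for Asb11 (nearest 9.67). In RiboTag footprints, control RPF_11745 had 23.4 CPM for Klhl11 (nearest 37.8), knockout RPF_11718 had 8.33 CPM for Klhl42 (nearest 4.88), and knockout RPF_11722 had 217.0 CPM for Klhl33 (nearest 157). Control RPF_11745 also had the lowest log2 ratio of footprint to mRNA for Klhl4, at 1.03 (nearest 1.27). In nascent RNA, the fourth DMSO library had an Asb12 log2 value of 7.82 (nearest 7.39), the third FX1 library had 11.62 for Asb14 (nearest 10.10), and the first DMSO library had 5.83 for Klhl6 (nearest 6.22).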

How the results depend on the processing

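Counts of called adaptors that moved by over 1.5 times with a setting were those lowered in RiboTag mRNA (4 with DESeq2), raised in translation efficiency (0 without the filter on low counts), raised with FX1 (3 without the filter on low values, 1 with the replicate block) and raised windows (7 with quantile normalization). Klhl41 against Cre-negative muscle turned to 0.10 and Klhl31 against oil to 0.035 with quantile normalization. The cause was not tested. Leaving out 1 library gave 2 to 4 raised and 8 to 11 lowered against Cre-negative muscle, 5 to 6 and 10 to 12 against oil, 1 to 3 and 0 to 3 in RiboTag mRNA, 3 to 5 and 4 to 7 in footprints, 2 to 10 and 9 to 22 with FX1, 0 to 1 and 0 to 0 in the acute set, 0 to 0 for both in the chronic set, and 9 to 16 raised windows (9 without knockouts mKO_1900 or mKO_1907). Leaving out both libraries of 1 animal gave 0 to 1 raised and 1 to 5 lowered in translation efficiency. Over all genes, translation efficiency gave 437 raised and 1043 lowered with edgeR, 831 and 1260 with DESeq2, and 246 and 1073 without the filter. RiboTag mRNA gave 326 lowered with edgeR and 571 with DESeq2. The animal as a block gave 2 raised and 3 lowered adaptors in translation efficiency. In nascent RNA the numbers are only shared labels: same-numbered libraries correlated between -0.429 and 0.175, 1 of 10 correlated best with its own number, and the block gave 1 raised and 11 lowered adaptors (956 and 897 over all genes, against 1640 and 1589 without it). No paired analysis was possible for poly(A) RNA and H3K27ac because those groups share no numbers. The number of libraries, 3 to 5 a group, limits the precision of every value.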
